A study of Mus musculus with 16 samples.

Results

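The RNA held by tagged astrocyte ribosomes was compared between the striatum and the hippocampus of the same mice. The comparison rests on 8 of the 16 sequenced libraries, the 4 striatal and the 4 hippocampal immunoprecipitates (IP), which were paired by the animal number in their titles. The other 8 libraries, the cleared tissue lysates (input) of the same dissections, show how far each RNA was concentrated or depleted by the precipitation, how the whole tissue differed between the regions, and how much neuronal RNA was carried into the IP. All animals, numbered 970, 971, 974 and 977, were adults at postnatal day 63. They carried 1 copy of the tamoxifen-inducible Cre driver Aldh1l1-creERT2 and were heterozygous for the Ribotag allele. Their background was FVB, backcrossed to C57/Bl6N for 3 generations. Whole striata and whole hippocampi were taken from male and female mice, and the labels used here do not give the sex of each animal. No animal without the driver or the tag was analysed here.

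Astrocytes are the glial cells that take up glutamate, GABA and potassium around synapses, wrap blood vessels with their endfeet, and make much of the cholesterol of the brain. The striatum arises from the ventral (subpallial) forebrain and consists mainly of GABA-releasing projection neurons, whereas the hippocampus arises from the dorsal (pallial) forebrain and is built around glutamate-releasing principal neurons. In a RiboTag mouse, Cre recombinase exchanges the last exon of the ribosomal protein gene Rpl22 for one with a hemagglutinin (HA) tag. Ribosomes of the cells with Cre can then be pulled down with an antibody to HA together with the RNA they hold. The tag is placed in any cell in which the Aldh1l1 driver is active, so the IP stands for astrocytes only as far as the driver does.

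The leading genes on either side are shown with the promoter sequence of 4 of them, for which RefSeq (GRCm38.p6) gave 300 bases from 250 bases before to 50 bases after the annotated start. Scel and Prss56 were at or near 0 in the hippocampal IP, and Myoc and Gfap stood far higher in the hippocampal IP. The windows were searched on both strands for 6 short motifs. TAATTA is bound by homeodomain proteins and ACAAAG by SOX factors. STAT factors, which act downstream of cytokine receptors, bind TTCNNNGAA. Factors of the helix-loop-helix family bind the E-box CAGCTG, forkhead factors bind GTAAAC, and the TATA box is written TATAAA. No 2 matches overlapped in these windows, and capitals mark them.
Scel, chr14:103513091-103513390, plus strand: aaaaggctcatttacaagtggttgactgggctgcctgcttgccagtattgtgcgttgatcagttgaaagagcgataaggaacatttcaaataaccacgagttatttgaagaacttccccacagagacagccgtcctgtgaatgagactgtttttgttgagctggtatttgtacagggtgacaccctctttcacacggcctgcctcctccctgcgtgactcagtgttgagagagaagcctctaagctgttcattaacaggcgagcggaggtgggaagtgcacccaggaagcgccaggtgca
Prss56, chr1:87183064-87183363, plus strand: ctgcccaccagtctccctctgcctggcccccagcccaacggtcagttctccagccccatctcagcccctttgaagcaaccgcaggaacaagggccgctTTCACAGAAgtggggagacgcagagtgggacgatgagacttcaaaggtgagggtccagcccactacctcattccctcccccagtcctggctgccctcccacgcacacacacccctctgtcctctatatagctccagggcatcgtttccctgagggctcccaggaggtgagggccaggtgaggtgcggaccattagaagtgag
Myoc, chr1:162638900-162639199, plus strand: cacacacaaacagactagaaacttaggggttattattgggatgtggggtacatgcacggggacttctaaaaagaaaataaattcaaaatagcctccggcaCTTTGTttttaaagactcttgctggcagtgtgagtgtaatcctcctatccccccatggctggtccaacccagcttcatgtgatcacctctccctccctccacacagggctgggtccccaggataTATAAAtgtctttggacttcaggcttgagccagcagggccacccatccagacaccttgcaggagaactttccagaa
Gfap, chr11:102897151-102897450, minus strand: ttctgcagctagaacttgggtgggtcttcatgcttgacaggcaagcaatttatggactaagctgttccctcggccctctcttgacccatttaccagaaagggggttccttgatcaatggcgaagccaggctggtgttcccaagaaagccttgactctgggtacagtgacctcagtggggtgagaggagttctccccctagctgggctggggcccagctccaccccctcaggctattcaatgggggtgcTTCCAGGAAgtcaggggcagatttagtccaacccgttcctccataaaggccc
The Myoc window held a TATAAA with its first base 26 bases before the start and an ACAAAG on the opposite strand 150 bases before it. In Prss56 a TTCNNNGAA began 152 bases before the start, and in Gfap one began 2 bases before it. No searched letters were in the Scel window. Across all promoters in the table, 15.7% held TATAAA, 21.0% ACAAAG and 9.55% TTCNNNGAA. Promoters were found for 69 IP-enriched genes at least 2-fold higher in the hippocampal IP and for 34 of their striatal counterparts. The TATA box was in 20.3% and 8.82% of these, against 8.22% of tested genes. The SOX motif was in 15.9% and 14.7%, against 15.9% of tested genes, and the STAT motif in 7.25% and 11.8%, against 7.89%. The E-box was in 15.9% and 20.6% (17.4% of tested genes), the forkhead motif in 8.70% and 5.88% (7.14%) and the homeodomain motif in 4.35% and 0% (3.11%). These shares describe letters in a window and not bound sites.

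Levels are FPKM (fragments counted per gene, per length of the gene and per depth of the library), divided by a scaling factor for each library. Group values are mean ± SD over 4 animals, input levels given alone are means over 4 animals, and a difference is the log2(scaled FPKM + 1) of the striatal minus that of the hippocampal IP, ± SE, from a limma model with a term for the animal. The added 1 makes it smaller than the log2 ratio for low genes. A gene was called when its p-value, adjusted over all tested genes, was under 0.05. It is named IP-enriched when its level was at least 2-fold higher in IP than in input in the region where it was higher, and IP-depleted when it was at least 2-fold lower there.

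Aldh1l1, the folate enzyme gene whose promoter drives the Cre, was at 124, 112, 97.4 and 106 in the hippocampal IP of animals 970, 971, 974 and 977. In the striatal IP of the same animals it was at 130, 127, 74.6 and 88.6. The groups overlapped, with striatum above hippocampus in 970 and 971 and below it in 974 and 977 (log2 difference -0.10 ± 0.11, adjusted p = 0.525). Rpl22, the gene of the tagged protein, was at 3.42 ± 0.25 and 3.12 ± 0.21 (adjusted p = 0.45). All 24 astrocyte markers were present in both IPs, and their summed level was 17950 to 25370 in the hippocampal and 11310 to 20930 in the striatal IP, against 1023 to 1549 over the inputs. Of these markers 14 were called higher in the hippocampal IP and none in the striatal IP (median log2 difference -0.37). Estimated depth was 18600000 to 22300000 fragments in the hippocampal IP and 13800000 to 21500000 in the striatal IP, where 974 and 977 were the shallower, and 4090000 to 12100000 in the inputs. RNA of untagged cells was gauged by 16 pan-neuronal markers, whose median level in IP was 5.42% to 12% of the input in the hippocampus. Single markers ranged widely around these medians, from 1.79% to 157% of input over the 8 IPs. In the striatum the median was 9.4% in 970, 12.5% in 971, 25.9% in 974 and 15.1% in 977. A difference between such bulk libraries cannot tell fewer cells of a type from less RNA per cell.

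The regions differed widely. Of 11317 genes tested, 3447 (30.5%) were called, 1628 (14.4%) higher in the striatal IP and 1819 (16.1%) higher in the hippocampal IP. The difference had the same sign in all 4 animals for 1592 and 1784 of these. The levels of the 4 striatal and the 4 hippocampal libraries did not overlap for 896 (55.0%) and 943 (51.8%) of the called genes. Over all genes tested these shares were 9.28% and 9.84%, and since the calls rest on the same values the higher share among called genes is no separate result. Most differences were small. The median log2 difference was 0.61 among genes higher in striatum and -0.43 among genes higher in hippocampus, and -0.04 over all genes tested. A 2-fold difference on this scale was reached by 390 striatal and 169 hippocampal genes. The counts given for gene lists below are to be read against the 14.4% and 16.1% of all tested genes that were called.

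Of the genes higher in the striatal IP, 194 (11.9%) were IP-enriched and 534 (32.8%) IP-depleted. Of those higher in the hippocampal IP, 805 (44.3%) were IP-enriched and 236 (13.0%) IP-depleted. These counts moved with the scaling of the libraries, as the plot of calls by setting shows. When the 24 astrocyte markers were used as the common scale (the astrocyte scale), 1088 IP-enriched genes were higher in striatum and 240 in hippocampus. On that scale 49.0% of all tested genes were called striatal and 3.75% hippocampal, and each list count given on it below is to be read against these shares. The called genes of at least 2-fold difference depended less on such choices. Of the IP-enriched ones, 57 of 68 striatal and 84 of 87 hippocampal genes were called the same way in each alternative that tested them. Genes at least 2-fold higher in IP than in input in both regions numbered 1628, by coincidence the number of striatal calls. As reported here, 83 (5.1%) of them were called striatal and 614 (37.7%) hippocampal, against 14.4% and 16.1% of all tested genes.

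**Figure D1:**
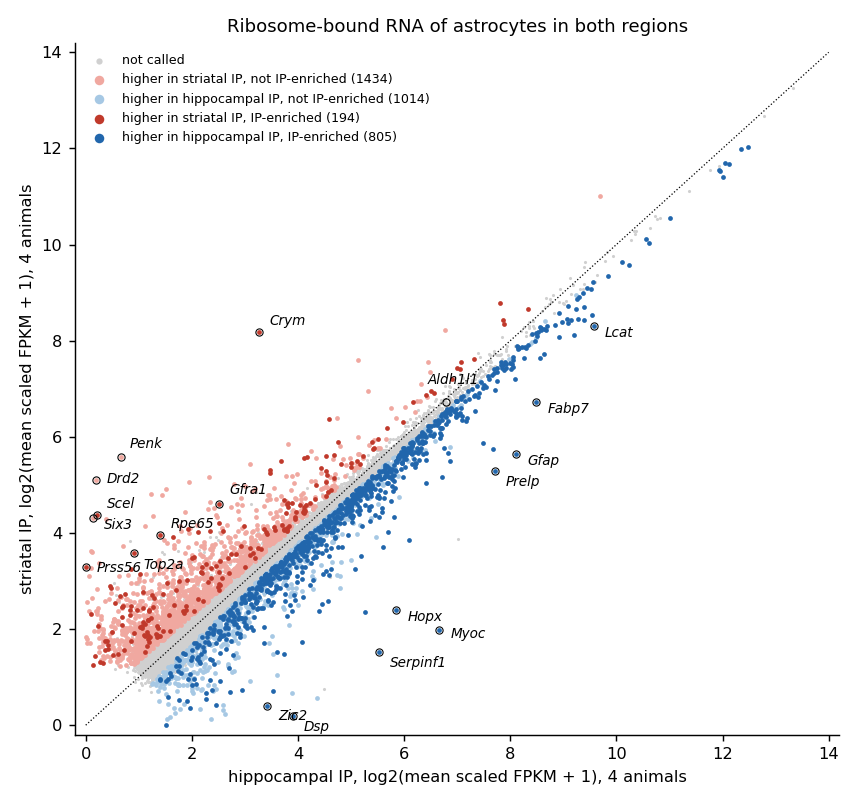
Mean level of each of the 11317 tested genes in the hippocampal IP (x axis) and the striatal IP (y axis), both as log2 of the mean scaled FPKM over 4 animals plus 1. Dark red and dark blue points are the 194 and 805 IP-enriched called genes, pale points the other called genes, grey points genes not called, and the dotted line marks equal levels. Crym, Scel and Six3 stand far above the line and Myoc, Serpinf1 and Hopx far below it, while Aldh1l1 lies on it.

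Crym, the gene of mu-crystallin, a protein that binds thyroid hormone in the cytosol, had the highest log2 difference of all IP-enriched genes (chr7:120186380-120202111, minus strand, mm10). Its level in the hippocampal IP was 5.21, 5.79, 12.3 and 11 in animals 970, 971, 974 and 977. In the striatal IP it was 284, 401, 244 and 221. The groups were far apart and every animal showed a striatal excess, from 19.9-fold in 974 and up to 69.2-fold in 971 (log2 difference 4.95 ± 0.38, adjusted p = 0.00222). In whole tissue the order was the other way round, with 74.9 ± 8.4 in hippocampal and 42.0 ± 5.9 in striatal input. The IP level was 684% of the input in striatum and 11.5% of it in hippocampus, the latter inside the range of the pan-neuronal medians there.

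Scel, which encodes sciellin, a protein known from the cornified envelope of skin (chr14:103513342-103612797), was nearly absent from the hippocampal IP, at 0.0604, 0.0956, 0.277 and 0.177. In the striatal IP of the same animals it was at 20.3, 28.6, 14.3 and 15.7. The lowest striatal library exceeded the highest hippocampal one many times over (log2 difference 4.12 ± 0.18, adjusted p = 6.35e-06). Prss56, the gene of a secreted serine protease (chr1:87183313-87188405), was listed at 0 in all 4 hippocampal IPs and at 13.0, 4.06, 11.2 and 6.97 in the striatal IPs (adjusted p = 8.70e-05). No fold change is given for it because 1 side was at 0. Genes were kept when at least 4 of the 8 IPs held at least 1 FPKM before scaling (the filter on low values). Scel and Prss56, like Sfrp5 below, were under 1 in every hippocampal IP. They passed that filter through the striatal libraries alone, so their direction was fixed by it.

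Rpe65, which encodes the retinoid isomerase of the visual cycle, was at 2.13, 1.55, 0.785 and 2.05 in the hippocampal IP. It was at 12.8, 19.7, 14.3 and 11.1 in the striatal IP, again with no overlap (log2 difference 2.56 ± 0.20, adjusted p = 0.000157). Gfra1, the gene of the GDNF co-receptor, was at 5.10, 5.62, 3.74 and 4.29 in hippocampus and at 26, 31.6, 18.0 and 16.9 in striatum. Each animal showed a difference of 3.94-fold to 5.61-fold (log2 difference 2.05 ± 0.10, adjusted p = 4.51e-06), while the inputs were at 3.24 and 2.33. Sfrp5, a secreted Wnt antagonist gene, was at 0.289, 0.701, 0.189 and 0.282 in hippocampus and at 7.58, 8.13, 2.33 and 7.66 in striatum, where 974 was far below the other animals (log2 difference 2.35 ± 0.21, adjusted p = 0.000154).

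Top2a, which encodes a DNA topoisomerase of dividing cells, was at 1.29, 1.18, 0.392 and 0.676 in the hippocampal IP. In the striatal IP it was at 18.4, 7.46, 10.8 and 7.49, with 970 the highest and all 4 above hippocampus (log2 difference 2.62 ± 0.20, adjusted p = 7.71e-05). Ube2c, a ubiquitin-conjugating enzyme gene of mitosis, was at 0.40 ± 0.18 and 6.25 ± 1.87, and the histone genes Hist1h2bm and Hist1h1b were at 1.04 ± 0.66 and 7.79 ± 2.97 and at 0.556 ± 0.460 and 5.46 ± 1.65. All 3 were called, and the histone genes have close paralogs among which reads can be split. In the list of progenitor and neuroblast markers, 7 of 11 tested members were higher in striatal and 3 in hippocampal IP (median 1.25, against -0.04 over all genes). The striatal members included Dlx1, Dlx2, Sox11, Dcx, Cd24a and Mki67, and the hippocampal ones were Tnc, Thbs4 and Egfr. Their summed level was 126.9 to 224.5 in the striatal and 136.0 to 204.6 in the hippocampal IP. Ube2c, Dlx1 and Dlx2 were under 1 in every hippocampal IP, and Top2a and Hist1h1b were so before scaling. All of these passed the filter on low values through the striatal libraries alone, so their direction was fixed by it. Whether cells other than mature astrocytes carried the tag in either region was not tested.

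Myoc, the gene of myocilin, a secreted glycoprotein known from the drainage tissue of the eye, had the most negative log2 difference of all tested genes on the log2(scaled FPKM + 1) scale (chr1:162639155-162649693). By the ratio of means it was 34.4-fold higher in hippocampus, below Dsp at 101-fold and Nrn1 at 40.4-fold, which averaged under 1 in striatum. The level of Myoc was 69.8, 108, 140 and 83.5 in the hippocampal IP. In the striatal IP it was 1.5, 3.04, 5.23 and 1.91, and animal 974 was the highest on both sides (log2 difference -4.74 ± 0.08, adjusted p = 2.42e-08). The excess was 26.7-fold to 46.5-fold within animals. Serpinf1, which encodes pigment epithelium-derived factor, a secreted protein known to hold back blood vessel growth (chr11:75409769-75422701), was at 48.4, 54.5, 46.1 and 32.1 in hippocampus and at 2.54, 2.50, 1.74 and 0.692 in striatum. Here 977 was the lowest on both sides, and the groups did not overlap (log2 difference -4.05 ± 0.09, adjusted p = 7.16e-08).

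Hopx, a gene of a small homeodomain protein that does not bind DNA, known from neural stem cells and astrocytes of the dentate gyrus (chr5:77086988-77115121), was at 62.0, 60.9, 49.7 and 54.9 in the hippocampal IP. It was at 5.08, 4.21, 3.93 and 3.72 in the striatal IP, a nearly constant ratio of 12.2-fold to 14.8-fold (log2 difference -3.47 ± 0.08, adjusted p = 6.47e-08). Zic2, a zinc finger transcription factor gene (chr14:122475435-122479852), was at 9.99, 9.93, 9.26 and 9.61 in hippocampus and stayed under 1 in every striatal library, at 0.242, 0.489, 0.206 and 0.370 (log2 difference -3.02 ± 0.10, adjusted p = 5.04e-07). Its inputs were at 0.621 and 0.388. Dsp, the gene of the desmosome linker desmoplakin, was at 10.2, 9.87, 21.7 and 14.3 in hippocampus and under 0.33 in all striatal libraries (log2 difference -3.66 ± 0.23, adjusted p = 4.79e-05). Dsp was also 5.64 in hippocampal input and 0.0220 in striatal input. Zic2 and Dsp, like Rtp1 below, were under 1 in every striatal IP. They passed the filter on low values through the hippocampal libraries alone, so their direction was fixed by it.

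Cald1, which encodes the actin-binding protein caldesmon, was at 40.0, 45.5, 29.3 and 35.2 in the hippocampal IP and at 4.51, 4.53, 3.68 and 3.77 in the striatal IP (log2 difference -2.90 ± 0.08, adjusted p = 3.11e-07). Its inputs were at 13.8 and 11.4, so that the IP held 272% of the input level in hippocampus and 36.2% in striatum. Gfap, the intermediate filament gene by which astrocytes are most often stained, was at 279, 310, 264 and 251 in hippocampus and at 67.2, 37.4, 42.5 and 48.8 in striatum (log2 difference -2.50 ± 0.15, adjusted p = 1.97e-05). For Gfap the tissue differed alike, with 15.2 and 2.38 in the inputs, and the regional difference in IP was not distinguishable from that in input (-0.15, adjusted p = 0.741).

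The other IP-enriched hippocampal leaders had varied roles. Prelp, a matrix leucine-rich repeat proteoglycan gene, was at 207 ± 46.1 in hippocampus and 38 ± 6.2 in striatum. Hsd11b1, whose enzyme regenerates active glucocorticoid, was at 67.0 ± 8.96 and 13.4 ± 1.94. Cybrd1, an iron reductase gene, was at 15.8 ± 1.59 and 2.32 ± 0.12. Pdgfd, a platelet-derived growth factor gene, was at 12.4 ± 2.2 and 1.79 ± 0.72, and Rtp1, a receptor-transporting protein gene, at 10.6 ± 1.13 and 0.629 ± 0.349. These 5 were called with log2 differences of -2.24 to -2.85 and did not overlap between the groups.

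Among highly abundant genes, Fabp7, the brain fatty acid binding protein gene of radial glia and astrocytes, was at 315, 331, 423 and 369 in the hippocampal IP. It was at 86.4, 107, 100 and 124 in the striatal IP (log2 difference -1.78 ± 0.10, adjusted p = 9.32e-06). Lcat, the gene of the enzyme that esterifies cholesterol on lipoproteins, was at 849, 872, 657 and 657 in hippocampus and at 405, 369, 221 and 258 in striatum (log2 difference -1.30 ± 0.10, adjusted p = 3.66e-05). The animals 974 and 977 were lower than the other pair in both regions, so the within-animal ratio kept to 2.10-fold to 2.97-fold. Aqp4, the water channel gene of the endfeet, was at 585 ± 55.2 and 276 ± 46.6, and Dbi, an acyl-CoA binding protein gene, at 739 ± 103 and 368 ± 47.9. On the striatal side the most abundant RNA with at least a 2-fold difference was the nuclear noncoding RNA Malat1, at 825 ± 317 and 2050 ± 1005. It was IP-depleted in both regions, overlapped between the groups, and was not called when the neuronal carry-over was subtracted (adjusted p = 0.184) or with no replicate block (adjusted p = 0.0704).

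**Figure D2:**
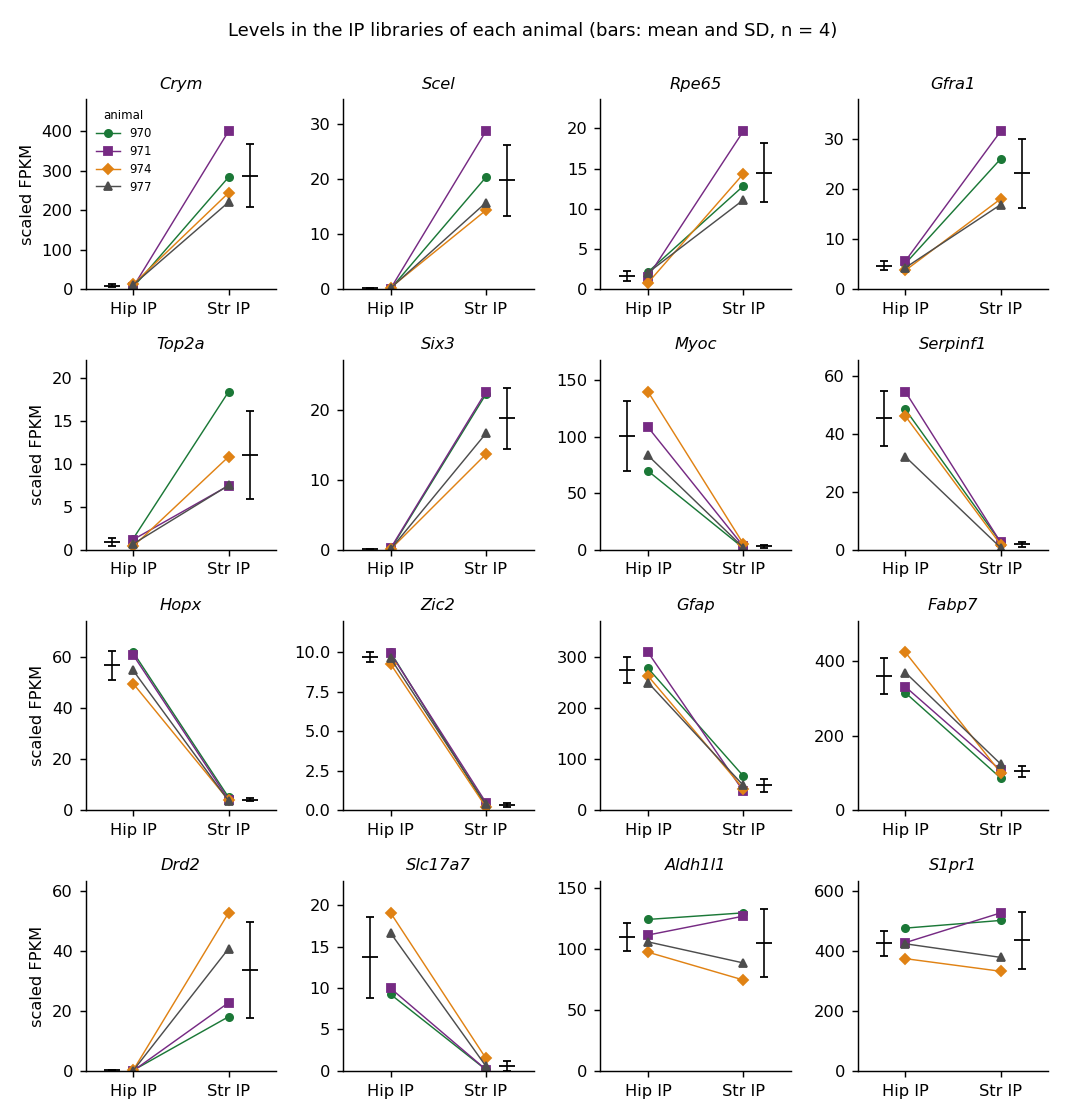
Scaled FPKM of 16 genes in the hippocampal IP (Hip IP) and the striatal IP (Str IP), with 1 line for each of the 4 animals and black bars for the mean and SD of each region. The lines of Crym to Six3 rise and those of Myoc to Fabp7 fall in all 4 animals, Drd2 and Slc17a7 are neuronal genes of 1 region each, and Aldh1l1 and S1pr1 rise in animals 970 and 971 and fall in 974 and 977.

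Of 154 genes that were at least 8-fold higher in IP than in input in both regions, 78 (50.6%) were called hippocampal and 4 striatal, against 16.1% and 14.4% of all genes. The other 72 were not called, and for 57 of those the 95% confidence interval of the log2 difference lay within 0.5 either side of 0. S1pr1, a receptor gene for sphingosine-1-phosphate, was at 475, 427, 374 and 423 in the hippocampal IP and at 501, 526, 332 and 378 in the striatal IP (log2 difference 0.01 ± 0.10). The groups overlapped fully, and striatum was higher in 970 and 971 and lower in 974 and 977, as for Aldh1l1. Acsbg1, an acyl-CoA synthetase gene, was at 386 ± 48.6 and 390 ± 99.8, and the protocadherin gene Pcdhgc3 at 206 ± 18.9 and 210 ± 52.4. Ntsr2, a neurotensin receptor gene, S100a1, a calcium sensor gene, and Prdx6, a peroxiredoxin gene, also differed by at most 0.10 on the log2 scale. These levels rest on the scale: on the astrocyte scale Aldh1l1, Acsbg1 and Ntsr2 were called higher in striatum. All of them are among the markers that set that scale and lay above the marker median of -0.37, so the direction they took was fixed by it.

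The transcription factors that pattern the forebrain divided by region. Of the 13 tested subpallial factor genes 12 were higher in the striatal and 1 in the hippocampal IP (median log2 difference 1.79, against -0.04 over all genes and 14.4% called in this direction). Six3, a homeobox gene of the ventral forebrain, was at 0.0662, 0.204, 0.0650 and 0.0646 in the hippocampal IP and at 22.3, 22.6, 13.7 and 16.7 in the striatal IP (log2 difference 4.14 ± 0.12, adjusted p = 3.22e-07). The 4 striatal libraries lay far above all hippocampal ones, and the inputs differed as widely, at 0.102 and 24.2. Dlx2, a homeobox gene of GABAergic progenitors, was at 0.0781 ± 0.0534 and 3.96 ± 1.39 and was IP-enriched in striatum at 594% of input, whereas Dlx5, another member of the family, was at 0.227 ± 0.079 and 3.81 ± 0.68 and at 46.7% of input. Sp9, a zinc finger gene of the same progenitors, was at 0.228 ± 0.081 and 3.60 ± 1.07. The exception was Zfp503, which went the other way, at 4.35 ± 0.75 in hippocampus and 1.41 ± 0.42 in striatum. Of this list 12 further members were under the filter on low values and were not tested. Six3, Dlx2, Dlx5 and Sp9 were under 1 in every hippocampal IP and passed that filter through the striatal libraries alone. Their direction was therefore fixed by the filter, and the count is no separate test of it. The subpallial list shares 3 tested genes with the list of striatal projection neuron markers, and it shares Dlx2 with the progenitor and neuroblast list, so these lists are not independent. After carry-over subtraction 8 of its members could be tested, of which 6 were striatal and 1 hippocampal, against 3.87% and 8.70% of all genes tested then.

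Of the 17 tested pallial factor genes 13 were higher in the hippocampal and 2 in the striatal IP (median -1.05, with 16.1% of all genes called in this direction). Prox1, a homeobox gene of dentate granule cells, was at 14.9 ± 0.9 and 4.67 ± 1.55 but IP-depleted, as were the neuronal genes Neurod6 and Neurod2. These 3 genes are also counted in the list of hippocampal principal neuron markers. Several pallial factors were IP-enriched in both regions. Nr2f1, a nuclear receptor gene of cortical patterning, was at 21.2 ± 2.1 and 7.85 ± 0.87 (log2 difference -1.33 ± 0.08, adjusted p = 1.47e-05). Emx2, a homeobox gene of the dorsal forebrain, was at 26 ± 2.3 and 12 ± 2.5, Otx1 at 15.8 ± 0.7 and 7.29 ± 1.90, and Lhx2, a LIM homeobox gene, at 135 ± 14.3 and 85.4 ± 18.1. These 4, with Zfp503 above and Sox9 below, were chosen for naming after their values were seen.

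In the list of glial factors 16 of 27 were higher in hippocampal and 3 in striatal IP (median -0.36). Hopx and Zic2 led it. Zic1, a relative of Zic2, was at 3.44 ± 0.88 and 0.254 ± 0.115, although the striatal input held more of it (1.77 and 3.94 in the inputs). Olig2, a helix-loop-helix factor gene of the oligodendrocyte lineage and of some astrocytes, was at 16.1 ± 6.3 and 5.38 ± 1.91 and was not called after carry-over subtraction (adjusted p = 0.0576). Sox9, a factor gene found in nearly all astrocytes, differed less, at 215 ± 16.2 and 142 ± 21.5 (log2 difference -0.60 ± 0.10, adjusted p = 0.0022). On the astrocyte scale this list had 7 striatal and 9 hippocampal calls and a median of 0.01, while the subpallial list kept 12 striatal and 1 hippocampal and the pallial list had 3 and 10.

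**Figure D3:**
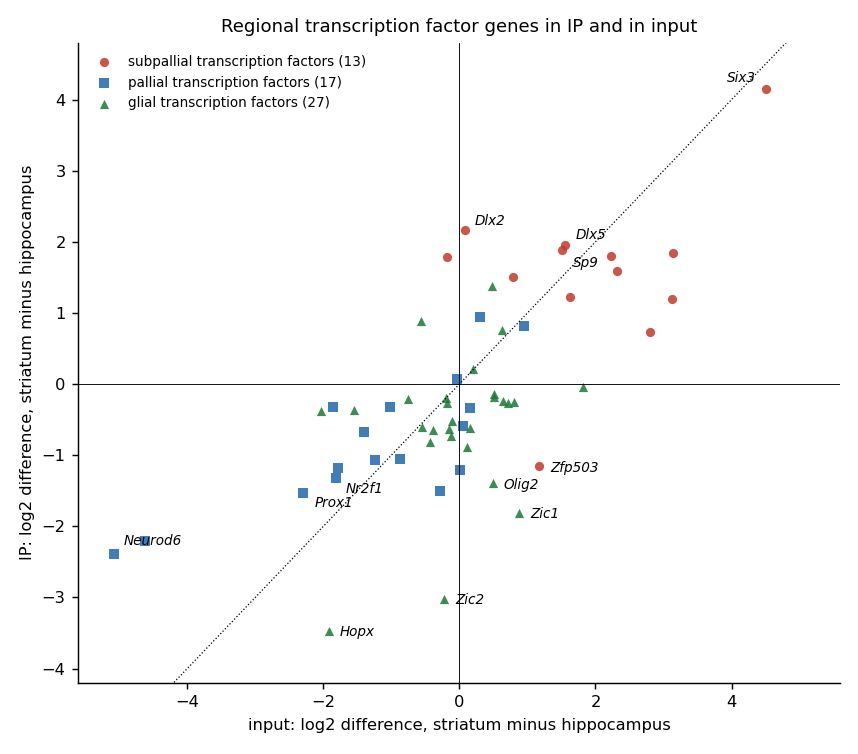
Log2 difference between striatum and hippocampus in input (x axis) and in IP (y axis) for the tested subpallial (13, circles), pallial (17, squares) and glial (27, triangles) transcription factor genes, from the limma models over 4 animals. The dotted line marks equal differences. Six3 lies close to the line at 4.51 and 4.14, while Zic2 is at -0.23 and -3.02, and Zic1 at 0.88 and -1.81.

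Signalling genes did not share 1 direction. In the Wnt list, 9 of 23 tested members were higher in striatal and 8 in hippocampal IP (median 0.17), against 13 and 4 on the astrocyte scale. Besides Sfrp5, the antagonist gene Sfrp1 was striatal, at 10.1 ± 3.4 and 37.1 ± 8.3, as was Rspo3, whose protein strengthens Wnt signals. The receptor gene Fzd9 was hippocampal, at 5.47 ± 1.72 and 1.28 ± 0.30. In the list of FGF and EGF family signalling, 8 of 17 were higher in hippocampus and 1 in striatum (median -0.32), but 5 and 5 on the astrocyte scale. Fgfr1, a receptor gene, was at 27.3 ± 4.5 and 12.1 ± 3.1, and Etv5, a transcription factor gene induced by FGF, at 73.8 ± 13.5 and 43.0 ± 10.7. Among neurotrophic factors and receptors 3 of 14 were striatal, Gfra1 among them, and 6 hippocampal, against 7 and 3 on the astrocyte scale. Igfbp2, a binding protein gene for insulin-like growth factors, was at 32.8 ± 6.3 and 8.55 ± 4.12, and the related Igfbp5 was not called (172 ± 29.8 and 201 ± 22).

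Notch and Hedgehog genes showed single members on either side. Of 15 Notch pathway genes 2 were higher in striatal and 4 in hippocampal IP (median -0.15, with 14.4% and 16.1% of all genes called), against 6 and 4 on the astrocyte scale, where 49.0% and 3.75% of all genes were called. The receptor gene Notch3 was at 3.52 ± 0.50 and 8.05 ± 0.88 and the target gene Hey2 at 5.43 ± 1.2 and 10.2 ± 2.6, both striatal, whereas the ligand gene Jag1 was at 5.44 ± 0.84 and 2.71 ± 0.55. Of 10 Hedgehog pathway genes 5 were hippocampal and 1 striatal, against 3 and 2 on the astrocyte scale. The co-receptor genes Boc, at 10.5 ± 2.5 and 4.95 ± 1.04, and Gas1, at 9.83 ± 0.28 and 5.08 ± 0.47, were both about 2-fold higher in hippocampus. In the thyroid hormone list 3 of 13 were striatal and none hippocampal: Crym, Hr, a corepressor gene of hormone receptors (1.76 ± 0.59 and 5.67 ± 2.14), and Rxrg, a retinoid X receptor gene that was IP-depleted (0.165 ± 0.046 and 4.20 ± 1.99). Dio2, whose enzyme activates thyroid hormone, did not pass (199 ± 36.9 and 171 ± 60.3, adjusted p = 0.0861). On the astrocyte scale 7 members of this list were striatal.

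Genes for handling transmitters and ions varied by family. In the glutamate uptake and glutamine cycle list 8 of 16 were higher in hippocampal and none in striatal IP (median -0.28). On the astrocyte scale this became 6 hippocampal and 5 striatal. Slc25a18, a mitochondrial glutamate carrier gene, was at 202 ± 17.0 and 52.4 ± 19.5 (log2 difference -2.0 ± 0.19, adjusted p = 0.0004). The cystine-glutamate exchanger gene Slc7a11 was at 69.6 ± 11.9 and 42.3 ± 9.6, and glutamine synthetase, Glul, at 4099 ± 958 and 2706 ± 873. Glul was called only with the animal as a term (adjusted p = 0.00346, and 0.171 with no replicate block). Slc38a3, a glutamine exporter gene, did not pass (44.6 ± 6.7 and 52.0 ± 15.9). In the GABA list the transporter gene Slc6a11 was not called (660 ± 101 and 537 ± 194, adjusted p = 0.202).

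Receptor and channel genes included strong differences. Gabbr2, a subunit gene of the GABA-B receptor, was at 20, 16.3, 16.9 and 14.7 in the hippocampal IP and at 45.8, 48.6, 29.0 and 63.7 in the striatal IP (log2 difference 1.37 ± 0.20, adjusted p = 0.00454). The groups did not overlap, and input went the other way, at 72.0 and 15.6. Gabra2, a GABA-A receptor subunit gene, was higher in hippocampus, at 116 ± 12.5 and 54.0 ± 5.5. Among 10 potassium channel genes of the inward rectifier and tandem-pore families 4 were striatal and 5 hippocampal. Kcnj16, a rectifier subunit gene of glia, was at 47.4 ± 4.8 and 12.1 ± 3.3 (log2 difference -1.91 ± 0.12, adjusted p = 1.45e-05), while Kcnj2 was IP-depleted, at 0.296 ± 0.146 and 2.41 ± 0.88. Of 5 connexin and pannexin genes 3 were hippocampal and 1, Gjc3, was striatal, with the main astrocyte connexin genes Gjb6 at 160 ± 20.7 and 91.9 ± 25.8 and Gja1 at 568 ± 24.9 and 342 ± 93.9. Of 20 peptide, lipid and orphan receptor genes 10 were hippocampal and 2 striatal, but 5 and 7 on the astrocyte scale. They included the endothelin receptor gene Ednra, at 23.7 ± 1.9 and 11.9 ± 2.2, and the lysophosphatidic acid receptor gene Lpar4, at 6.48 ± 0.80 and 2.57 ± 0.67.

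Calcium genes split between the regions, with 6 of 26 striatal and 7 hippocampal (14.4% and 16.1% of all genes). With the astrocyte scale 14 were striatal and 2 hippocampal, near the 49.0% and 3.75% of all genes. Ryr3, a ryanodine receptor gene, was at 4.35 ± 1.96 in the hippocampal and 21.8 ± 11.7 in the striatal IP (log2 difference 2.02 ± 0.10, adjusted p = 4.96e-06), at 43.3% and 75.9% of input. Itpr1, an inositol trisphosphate receptor gene of neurons, was at 8.16 ± 2.28 and 29.0 ± 8.6, at 16.4% and 19.6% of input. Itpr1 was no longer called after subtraction of the carry-over, where its difference turned to -0.19 (adjusted p = 0.885). S100a10, the gene of the annexin partner p11, was at 19.9 ± 10.2 and 4.17 ± 2.34.

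Among the metabolic lists, cholesterol synthesis had the highest share of calls. Of its 22 tested enzymes and regulators 19 were higher in the hippocampal and none in the striatal IP (median log2 difference -0.52). Cyp51, the sterol demethylase gene, was at 72.8 ± 3.3 and 42.4 ± 5.6 (log2 difference -0.77 ± 0.08, adjusted p = 0.00021), and Sqle, the squalene epoxidase gene, at 80.4 ± 5.4 and 49.0 ± 5.2. The regulator gene Srebf2 was not called (60.1 ± 4.5 and 56.3 ± 11.8, adjusted p = 0.411). On the astrocyte scale the list had 7 hippocampal and 1 striatal call and a median of -0.13. In the list named for apolipoproteins and lipid export 7 of 14 genes were hippocampal and 2 striatal, against 4 and 2 on the astrocyte scale. Its leaders Myoc and Serpinf1, and Serpina3n, a protease inhibitor gene, encode secreted proteins not known as lipid carriers. Other hippocampal members included Lcat and the apolipoprotein genes Apoe and Clu (log2 differences -1.30, -0.36 and -0.41). The striatal ones were the lipase gene Lpl and the cholesterol exporter gene Abca1 (0.81 and 0.44). The retinol reductase gene Dhrs3, of the retinoid list, was at 47.0 ± 4.6 and 20.6 ± 4.2. In the list of metallothionein, glutathione and zinc genes 8 of 21 were hippocampal and none striatal, but 2 and 7 on the astrocyte scale. The metallothionein genes Mt1, at 671 ± 94.6 and 416 ± 117, and Mt2, at 1204 ± 154 and 761 ± 207, were among the 8, neither called with no replicate block (adjusted p = 0.0538 and 0.062). On the other hand, 30 of 34 respiratory chain genes and 59 of 64 cytosolic ribosomal protein genes were not called, while 24 and 38 were called striatal on the astrocyte scale, where 49.0% of all genes were.

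Reactive-state and matrix genes were next compared. Of 13 listed pan-reactive astrocyte genes, which are known to rise after brain injury, 7 were under the filter on low values and were not tested. On the astrocyte scale 4 of the other 6 were hippocampal and none striatal. As reported here, 5 of the 6 were higher in the hippocampal IP and none in the striatal IP (median -0.94), against 16.1% and 14.4% of all genes. Besides Gfap these included Vim, the vimentin gene, at 84.2 ± 8.1 and 44.7 ± 6.1, Osmr, the oncostatin M receptor gene, at 13.5 ± 1.1 and 4.67 ± 0.37, and Aspg, an asparaginase gene, at 1.93 ± 0.22 and 0.509 ± 0.345. Aspg passed the filter through the hippocampal libraries alone. Of 20 genes of lecticans, tenascins and matrix proteases 10 were hippocampal and 3 striatal, against 7 and 4 on the astrocyte scale. The protease gene Adamts1 was at 14.3 ± 4.0 and 5.09 ± 1.51 and the tenascin gene Tnc at 11 ± 2.4 and 6.10 ± 0.89, and the abundant lectican gene Ncan missed the threshold (792 ± 118 and 656 ± 153, adjusted p = 0.0548). Among synapse-regulating proteins Chrdl1, a BMP antagonist gene known to mature synapses, was higher in striatum, at 5.01 ± 0.77 and 15.4 ± 4.5. Thbs4, a thrombospondin gene, was higher in hippocampus, at 106 ± 28.0 and 53.7 ± 15.7, and was not called without animal 971 (adjusted p = 0.078), with no scaling (0.0698) or on the astrocyte scale (0.116).

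Adhesion and guidance genes were called in both directions. Of 32 tested cadherin, protocadherin and other adhesion genes 14 were hippocampal and 2 striatal. With the astrocyte scale 4 were hippocampal and 12 striatal, against 3.75% and 49.0% of all genes. Cdh4, the R-cadherin gene, was at 6.25 ± 0.57 and 2.78 ± 0.40. Of 22 axon guidance genes 5 were striatal and 9 hippocampal, but 7 and 5 on the astrocyte scale. The ephrin gene Efnb2 was at 1.73 ± 0.41 and 7.98 ± 1.41 but IP-depleted, and the semaphorin receptor gene Nrp2 at 2.59 ± 0.24 and 0.359 ± 0.035.

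**Figure D4:**
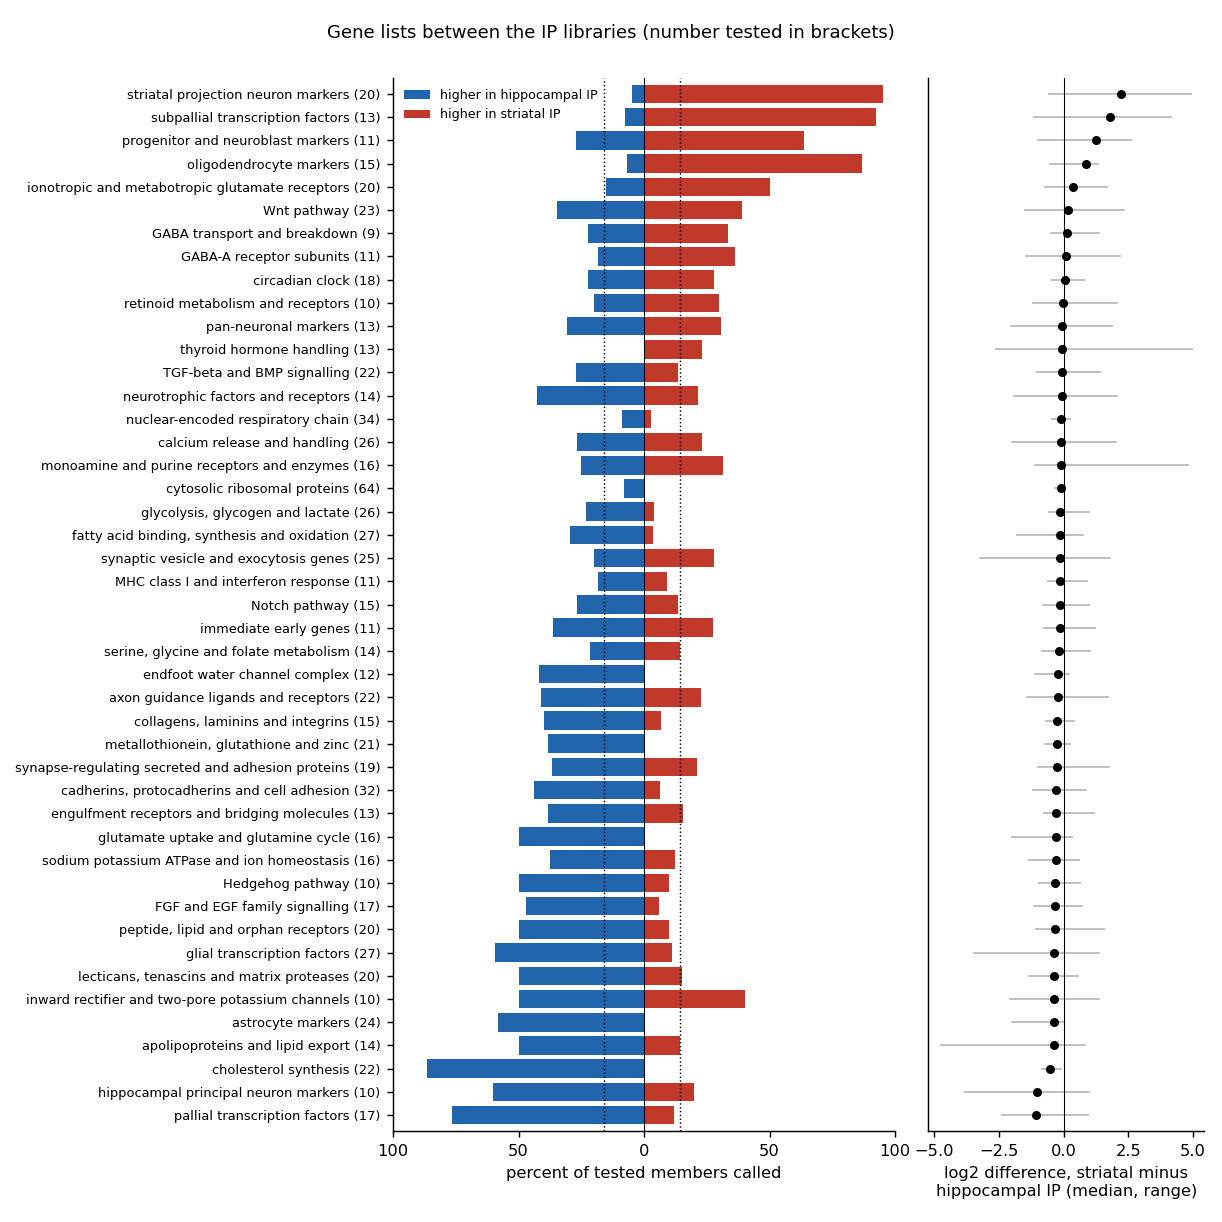
Left, percent of the tested members of each gene list (number in brackets, lists with at least 8 tested members) that were called higher in the hippocampal IP (blue, to the left) or in the striatal IP (red, to the right), with dotted lines at the 16.1% and 14.4% of all tested genes. Right, median (dot) and range (line) of the log2 difference of each list. Striatal neuron markers and subpallial factors stand at the top, with 19 of 20 and 12 of 13 members striatal, and cholesterol synthesis and the pallial factors near the bottom.

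The regional difference in IP was set against that in input for each gene, with all 16 libraries and the animal as a term. Of all tested genes 964 (8.52%) were more striatal and 712 (6.29%) more hippocampal in IP than in input. These counts fell to 362 and 252 without animal 971 and to 452 and 341 without animal 970. The test was run on log2(scaled FPKM + 1), which shrinks differences between low levels. A gene low in input could thus be called without a larger ratio in IP. Dsp was 101-fold higher in the hippocampal IP, and its inputs, at 5.64 and 0.0220, differed by more. It was still called more hippocampal in IP (-0.98, adjusted p = 0.0385). With 0.1 added in place of 1 the counts were 747 and 578, and with 5 added 1112 and 899. The shares below carry the same limit. Of the 194 IP-enriched striatal genes 86 (44.3%) passed this test in the same direction, 41 were also called striatal in input, and 31 were called hippocampal in input. Of the 805 IP-enriched hippocampal genes 210 (26.1%) passed it, 253 (31.4%) were also called hippocampal in input and 83 (10.3%) were called striatal there. Over all tested genes 14.9% were called striatal and 23.5% hippocampal in input, so calls of opposite direction were rarer in both sets than over all genes. The IP libraries enter both contrasts, so these shares describe the genes and do not test them anew. Crym, Gabbr2 and Rspo3 were among those of opposite direction. Rspo3 was at 3.48, 4.74, 3.12 and 3.77 in the hippocampal IP and at 10.1, 11.5, 8.87 and 6.59 in the striatal IP (log2 difference 1.09 ± 0.12, adjusted p = 0.000229). Its striatal libraries all exceeded the hippocampal ones, while the inputs were at 8.15 in hippocampus and 1.47 in striatum. On the hippocampal side, Plcb1, a phospholipase C gene, was at 31.9 ± 4.1 and 17.5 ± 1.8 in the IPs and at 19.0 and 49.9 in the inputs. Its IP difference was not called after carry-over subtraction (adjusted p = 0.154).

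Genes of the local neurons were among the IP-depleted genes with the largest differences on each side. Of the 534 IP-depleted striatal genes 347 (65.0%) were also called striatal in input, against 14.9% of all tested genes. Of the 236 hippocampal ones 216 (91.5%) were also called hippocampal there, against 23.5%. A high input level in the same region is part of what defines IP-depleted genes, so these shares are no separate result. Among 20 tested striatal projection neuron markers 19 were higher in the striatal IP and 1 lower (median 2.22). Their summed level was 279.2 to 503.8 there, against 2516 to 2942 in striatal input and 88.5 to 103.5 in the hippocampal IP. Drd2, the dopamine D2 receptor gene, was at 0.197, 0.0375, 0.233 and 0.116 in the hippocampal and at 18.1, 22.8, 52.7 and 40.8 in the striatal IP (log2 difference 4.8 ± 0.24, adjusted p = 4.84e-05). It was highest in 974 and 977, which also had the highest pan-neuronal share, and on average reached 13.3% of its striatal input.

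The other leaders of this kind were Penk, the enkephalin precursor gene, at 0.586 ± 0.462 and 46.9 ± 13.6 (6.33% of striatal input), and Tac1, the substance P precursor gene, at 0.305 ± 0.251 and 18.6 ± 9.95. Adcy5, the striatal adenylyl cyclase gene, was at 1.34 ± 0.80 and 27.0 ± 10.7, Syndig1l at 0.0655 ± 0.0532 and 11.3 ± 3.7, and the sodium channel gene Scn4b at 0.0797 ± 0.0698 and 11.1 ± 3.7. Drd2, Tac1, Syndig1l and Scn4b were under 1 in every hippocampal IP, and Penk was so before scaling. All of these genes passed the filter on low values through the striatal libraries alone. Their direction was fixed by it. With the pan-neuronal share subtracted, 6 of these projection neuron markers could still be tested and 3 were called. Of all genes tested then, 3.87% were called striatal and 8.70% hippocampal. Gad2, a GABA synthesis gene, was at 3.27 ± 0.86 and 16.9 ± 7.4, and the cannabinoid receptor gene Cnr1 at 6.28 ± 0.81 and 20.9 ± 4.0, but Cnr1 was not called after that subtraction (adjusted p = 0.266).

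Slc17a7, the vesicular glutamate transporter gene of pallial neurons, was at 9.24, 9.97, 19.1 and 16.6 in the hippocampal and at 0.143, 0.158, 1.51 and 0.562 in the striatal IP (log2 difference -3.23 ± 0.11, adjusted p = 5.04e-07). Again 974 and 977 were the highest in both regions, and the mean was 7.58% of hippocampal input. Nrn1, the neuritin gene, was at 19.5 ± 3.1 and 0.482 ± 0.277, and Cck, the cholecystokinin gene, at 11.2 ± 3.3 and 1.06 ± 0.62. Neurod6 was at 5.18 ± 1.44 and 0.178 ± 0.244 and Nptx1, a pentraxin gene, at 5.0 ± 1.1 and 0.330 ± 0.147. Nrn1, Neurod6 and Nptx1 were under 1 in every striatal IP and passed the filter on low values through the hippocampal libraries alone. Of 10 tested hippocampal principal neuron markers 6 were higher in hippocampal and 2, Calb1 and Dkk3, in striatal IP. The summed level of the list ran the other way, at 297.4 to 379.0 in the hippocampal and 402.9 to 579.4 in the striatal IP, against 812.8 to 910.0 and 182.2 to 223.6 in the inputs. The part of neuronal RNA in genes that both neurons and astrocytes use was not tested beyond the subtraction of the pan-neuronal share.

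Markers of other glia and of vessels were also examined. Of 15 tested oligodendrocyte markers 13 were higher in the striatal and 1 in the hippocampal IP (median 0.87), with a summed level of 122.7 to 186.8 in the striatal IP, 107.1 to 118.3 in the hippocampal IP and 695.8 to 831.3 in striatal input. The myelin gene Mbp was at 3.61 ± 1.79 and 10.5 ± 5.1, or 23.1% of striatal input, while Mag was at 0.931 ± 0.947 and 3.89 ± 2.22. After carry-over subtraction 5 members could be tested, of which none was striatal and 1 hippocampal, against 3.87% and 8.70% of all genes. Of 9 listed oligodendrocyte precursor markers 3, Pdgfra, Gpr17 and Lhfpl3, were under the filter on low values. Of the 6 tested ones 4 were higher in the hippocampal IP, each without overlap, and 2 in the striatal IP (median -0.58). Over all tested genes 16.1% were called hippocampal and 14.4% striatal, and 9.84% were higher in hippocampus without overlap. The precursor list is small. The listed precursor markers summed to 77.92 to 116.9 in the hippocampal IP, above the 55.89 to 58.85 of its input, and to 35.39 to 69.64 in the striatal IP, against 66.19 to 80.57 in its input. The hippocampal ones were Olig2, Olig1, C1ql1 and Cspg4, and the striatal ones Sox10 and Vcan. Microglia markers summed to 29.0 to 34.7 in the hippocampal and 31.7 to 44.0 in the striatal IP, with Siglech at 1.37 ± 0.37 and 3.04 ± 1.73 and P2ry12 at 5.41 ± 0.31 and 3.23 ± 0.83. Of 9 endothelial markers 2 passed the filter on low values. The pericyte gene Pdgfrb did not pass (10.4 ± 0.5 and 10.4 ± 1.1) and was above its input in both regions. Ttr, a choroid plexus gene, and Ptgds, a gene of meninges and choroid plexus, varied among hippocampal IPs (21.5 ± 30.9 and 129 ± 143) and were lower in every striatal IP (0.692 ± 0.401 and 13.7 ± 3.9), but were not called (adjusted p = 0.173 and 0.0573). Bgn, a matrix gene of fibroblasts, was called, at 20.9 ± 2.3 and 4.71 ± 0.14. Whether these cells contribute to a regional difference was not tested.

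A few genes were on or off by region in every library. With at least 5 scaled FPKM in all 4 IPs of 1 region and under 1 in all 4 of the other, 7 genes were striatal, namely Drd2, Gpr83, Scel, Scn4b, Six3, Syndig1l and Tac1, and 4 were hippocampal, namely Dsp, Nrn1, Rtp1 and Zic2. These counts were 0.0619% and 0.0353% of all tested genes. Each of these genes passed the filter on low values through the libraries of its higher region alone. Their direction was therefore fixed by the filter. Of these 11 only Scel, Dsp, Rtp1 and Zic2 were IP-enriched. Gpr83, an orphan receptor gene, was named by this count and not by the rule for named genes.

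**Figure D5:**
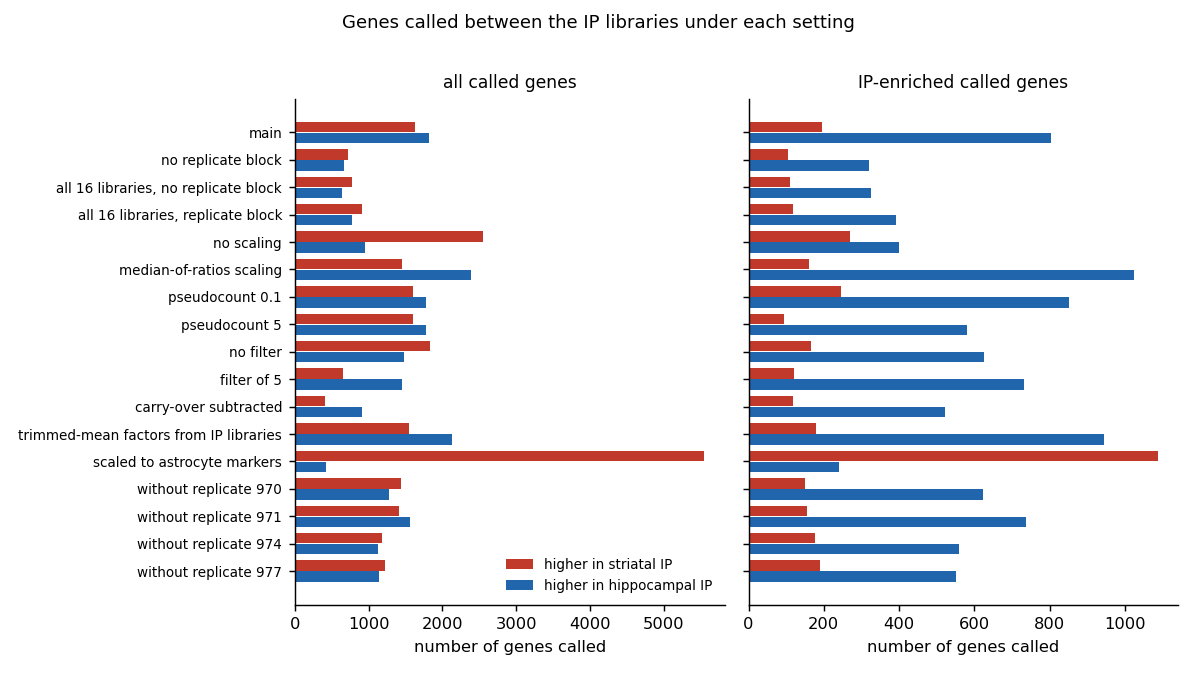
Number of genes called higher in the striatal IP (red) and in the hippocampal IP (blue) under the settings reported here and each alternative, for all called genes (left) and the IP-enriched ones (right). The balance of 1628 striatal to 1819 hippocampal calls turns to 2556 and 958 with no scaling, 405 and 909 with carry-over subtracted, and 5548 and 424 on the astrocyte scale.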

How the data were processed

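The deposited tables, 1 per library, hold FPKM per gene made by the authors from paired-end reads of amplified cDNA (Nugen Ovation RNA-Seq System V2, which does not mark strand, so overlapping antisense genes share reads), and the unit was taken from the description of the series and from the values, whose low levels are whole multiples of a step set by the gene in 1368 of 1465 genes checked (tolerance 0.02 steps). Per the submitters' processing notes, bcl2fastq 2.17, STAR and HTSeq were used with mm10; the annotation and gene lengths behind FPKM are not given in the sources used here. Depth in fragments was estimated from these steps.

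Of 24060 labels, 27 turned into dates were left out. FPKM was divided by trimmed-mean factors (30% of log ratios and 5% of levels trimmed), which were 0.746 to 1.05 for the IPs. Genes with at least 1 FPKM before scaling in at least 4 of the 8 IP libraries were kept. A gene low in 1 region could thus pass through the 4 libraries of the other region alone, and its direction then followed from the filter. Besides the genes so marked in the text, this held for Kcnj2, Rxrg, Zic1 and Nrp2. On log2(value + 1), limma 3.58.1 (R 4.3.3; trended, robust variance) was fitted to the 8 IP libraries with region and animal as terms (3 residual degrees of freedom), with Benjamini-Hochberg adjustment. The test of the regional difference in IP against that in input used all 16 libraries with the animal as a term (9 residual degrees of freedom). The animal was a term because each animal gave both IPs. After removal of group means, the same animal's IPs correlated at 0.504, 0.476, 0.594 and 0.371. Different animals correlated at 0.340 to 0.415 within the pairs 970 with 971 and 974 with 977, and at -0.532 to -0.348 between these pairs, and the striatal IP of 977 correlated more with the hippocampal IP of 974 (0.415) than with its own. An exact paired permutation test of 1 gene in 4 animals cannot go below 0.125.

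Carry-over was the median IP level of 16 pan-neuronal markers as percent of the same animal's input. The model was tested on simulated data with 11317 genes: for IPs, 13.4% of genes changed 1.5-fold, 77.6% of those changed 2-fold and 97.0% of those changed 4-fold were called, with 3.85% false calls. For the difference between IP and input these were 13.4%, 70.1%, 92.4% and 2.50%. The simulation changed only 67, 67 and 66 genes by these folds, none of them at the lowest levels. Its noise was drawn for each gene alone, with no carry-over, scaling error or shift shared by a library. The data held far more calls and shifts shared between libraries, so these rates do not carry over to them. Alternatives concerned the animal term, the libraries fitted, scaling, pseudocount, filter, carry-over, the enrichment threshold and the animals; factors from the IP libraries alone and the astrocyte scale were chosen after seeing the data.

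The members and gene lists were chosen with earlier results of these data known. Genes are named by a rule: Aldh1l1, Rpl22, Crym and Gfap; per direction the 12 largest differences among called, IP-enriched genes with a mean of at least 5 and 1 sign in all 4 animals, the 6 largest among IP-depleted ones, and the 5 most abundant with at least 2-fold difference; the 6 narrowest intervals around equality among the 50 most abundant genes at least 8-fold over input; and up to 4 called and 2 uncalled members of each list. Not all are printed; short RNA loci and some list members are not reported here. Positions are from GENCODE vM21 (GRCm38, the build mm10), in which 10842 of 11317 tested genes had an entry. Tables were handled in Python 3.11.15 with pandas 2.3.3, and plots made with matplotlib 3.10.9.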

Additional observations from a re-analysis of the deposited data

Results flagged for a closer look

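Of 48 groups of 4 libraries examined (both IPs of 23 genes described by library, and the carry-over of each region), 2 held a library far from the other 3. Sfrp5 in the striatal IP of animal 974 was at 2.33, below the others at 7.58 to 8.13, and Six3 in the hippocampal IP of animal 971 was at 0.204, above the others at 0.0646 to 0.0662. Chance flags about 1 in 20 such groups. Six3 is at the floor in all 4 of these libraries, and Sfrp5 was called without any 1 of the animals.

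For 5 of these genes the precipitation acted in opposite directions in the 2 regions, with the IP above the input in all 4 animals of 1 region and below it in all 4 of the other, and the difference between the regions passed the limma test with the animal as a term. The log2 difference of differences (striatum minus hippocampus, IP minus input) was 5.78 for Crym (adjusted p = 1.06e-06), 2.86 for Scel (adjusted p = 4.03e-05), 3.04 for Rspo3 (adjusted p = 2.57e-05), 3.51 for Gabbr2 (adjusted p = 2.83e-06) and -2.52 for Cald1 (adjusted p = 0.000297). Among all 11317 tested genes, 127 (1.12%) had this pattern with the striatal IP above its input and 103 (0.910%) with the hippocampal IP above its input.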

How the results depend on the processing

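Counts moved with the animal term and the scale. Of the 559 called genes of at least 2-fold difference, 405 could be tested after carry-over subtraction and 8 of these changed sign, Itpr1 among them; none of those tested changed sign under the other alternatives. With carry-over subtracted 1 gene, the inositol transporter gene Slc2a13, was called in the opposite direction (log2 difference 0.51 as reported and -1.34 then, adjusted p = 0.0185). Called the same way in each of the alternatives that tested them were 452 of 1628 striatal and 332 of 1819 hippocampal genes. Depth limits the low genes: at 13800000 to 22300000 fragments, levels under about 1 FPKM rest on few fragments.

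With no replicate block, that is, without pairing by animal, calls fell to 723 striatal and 667 hippocampal (106 and 319 IP-enriched), and in a fit of all 16 libraries to 774 and 635 (109 and 325) with no replicate block and 907 and 772 (117 and 393) with it. No scaling gave 2556 and 958, with 399 IP-enriched hippocampal genes and 72.7% of calls striatal, against 47.2% as reported, after a shift of the median of all genes by 0.136. Carry-over subtraction gave 405 and 909 (117 and 522 IP-enriched, 30.8% striatal, shift -0.134), and 515 genes more striatal in IP than in input. A minimum of 5 FPKM left 650 striatal calls (121 IP-enriched, 30.8% striatal) and 512 genes more striatal in IP. On the astrocyte scale there were 5548 and 424 calls (1088 and 240 IP-enriched, 92.9% striatal, shift 0.341), and 387 genes more hippocampal in IP. A pseudocount of 5 left 93 IP-enriched striatal genes, and 4-fold enrichment left 66 and 379. The cause of these moves was not tested.

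Leaving out each animal gave 1189 to 1437 striatal and 1124 to 1566 hippocampal calls, 151 to 189 and 551 to 736 IP-enriched ones, and a striatal share of 47.4% to 53.0%. Genes more striatal in IP than in input numbered 362 to 799 and more hippocampal ones 252 to 566. These 2 counts moved by over 1.5 times without 970 (452 and 341) and without 971 (362 and 252), and the hippocampal calls without 974 and 977 (1124 and 1146). 

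Of the genes named, Itpr1 turned to -0.19 after carry-over subtraction. On the astrocyte scale Aldh1l1 turned to 0.30, Acsbg1 to 0.39, Ntsr2 to 0.34, Srebf2 to 0.28 and Pdgfrb to 0.35. Among the genes with levels given here these were the ones whose sign turned with a call on either side. Slc2a13, given above by its difference alone, turned as well. Aldh1l1, Acsbg1 and Ntsr2 are among the markers that set the astrocyte scale, so their turn was fixed by it.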
